A study of Drosophila melanogaster with 2 samples.

Results

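The regions described here are 1716 peaks called from ChIP-seq of the tagged transcription factor gem that lay far from promoters, in introns downstream of the first intron of their host gene. ChIP-seq is chromatin immunoprecipitation followed by sequencing, done here on Drosophila melanogaster. The material was whole embryos, male and female pooled and aged 0 to 24 h, of 1 transgenic line that stably expresses gem with GFP at its C-terminus, precipitated with an antibody against GFP. The series had 1 group of 2 biological replicates, numbered 1 and 4, and no second condition. The age range spans all of embryogenesis, and a whole embryo mixes every tissue. Each member was a peak of the IDR list, which keeps peaks up to a limit on their irreproducible discovery rate, an estimate of whether a peak ranks alike in the replicates. Its summit lay more than 500 bp from every annotated transcription start site (TSS), outside all exons, inside an intron of a protein-coding transcript and in no first intron of such a transcript. These conditions held for 1716 of 11045 IDR peaks (15.5%, exact 95% interval 14.9 to 16.2), and all 1716 are counted below. The choice used position alone, so signal was free of it. Base composition was not wholly free, since exons were left out, and agreement between replicates is partly built into the IDR list. Control reads were not used here, so how far each peak rose above the control was not tested, and the counts and densities below are of called peaks, whose specificity for gem was not tested.

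Gem (gemini) is a transcription factor of the CP2 and Grainyhead family, in the branch named after CP2. Grainyhead proteins bind a palindromic site of the form AACCGGTT, and CP2 proteins bind a pair of short CNNG sites. Introns of insect developmental genes often carry enhancers, and first introns are known to be rich in them because they adjoin the promoter. Later introns can hold enhancers too, of the host or of a neighbouring gene.

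Sequences around the strongest summits were rich in A and T, and those below show it for 5 of the 6 strongest members. The member left out, in atos, ranked 4 among members and was richer in G and C, at 51.5%. Coordinates are on dm6 (sequence from RefSeq, release 6), on the plus strand, and capitals mark unbroken runs of A and T of at least 6 bases. For CG11050, whose member was the strongest of all, 300 bases are given. Its summit lies in an intron of 140 bp, from base 6612641 to 6612780, and the bases on either side of that are exon.
CG11050, chr2L:6612558-6612857: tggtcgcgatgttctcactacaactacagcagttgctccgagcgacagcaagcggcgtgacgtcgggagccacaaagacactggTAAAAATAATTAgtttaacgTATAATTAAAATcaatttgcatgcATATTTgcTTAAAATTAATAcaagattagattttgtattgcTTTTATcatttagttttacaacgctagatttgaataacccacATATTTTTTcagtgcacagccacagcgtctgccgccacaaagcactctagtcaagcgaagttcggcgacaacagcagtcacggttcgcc
Trl, chr3L:14759468-14759568: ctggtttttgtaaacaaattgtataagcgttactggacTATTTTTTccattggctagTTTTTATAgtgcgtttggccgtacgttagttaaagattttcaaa
Kdm2, chr3R:9057507-9057607: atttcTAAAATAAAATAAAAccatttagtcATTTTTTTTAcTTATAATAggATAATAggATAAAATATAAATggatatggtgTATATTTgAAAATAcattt
Raf, chrX:2297670-2297770: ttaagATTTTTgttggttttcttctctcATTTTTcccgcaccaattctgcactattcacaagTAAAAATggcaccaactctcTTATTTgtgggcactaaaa
CG14434, chrX:6863330-6863430: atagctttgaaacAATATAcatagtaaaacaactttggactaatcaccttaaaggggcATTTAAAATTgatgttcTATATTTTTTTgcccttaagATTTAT

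A small set of members looked different. Capitals mark AACCGGTT in the first 3 sequences and AACCGG on either strand in the last. They are shown because all 4 members with AACCGGTT had a higher signal in replicate 4, as described further on. Of the 18 members with AACCGG, which include these 4, 7 did. Another member with the whole palindrome, in px, is described by its values only.
CG14073, chr3L:18817757-18817857: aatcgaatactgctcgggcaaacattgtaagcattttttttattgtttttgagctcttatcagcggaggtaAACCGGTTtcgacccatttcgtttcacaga
cact, chr2L:16321580-16321680: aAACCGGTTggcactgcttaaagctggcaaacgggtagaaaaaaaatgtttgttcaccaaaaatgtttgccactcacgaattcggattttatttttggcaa
CG32264, chr3L:3802061-3802161: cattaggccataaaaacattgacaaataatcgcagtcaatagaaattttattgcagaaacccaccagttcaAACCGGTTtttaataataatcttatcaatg
Pino, chr2L:1125564-1125664: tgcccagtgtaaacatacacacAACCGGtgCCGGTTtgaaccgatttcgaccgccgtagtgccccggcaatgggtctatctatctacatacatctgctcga

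Peak calls were read as deposited: 30000 peaks for each replicate, 30000 for the pooled replicates and 11045 in the IDR list. The signal of a peak is the authors' own value, of unstated scale, and read depth is unknown from these lists. Of the members, 1472 (85.8%) had the highest −log10 q-value of the list, so signal was used to rank them. Intervals below are exact 95% intervals that cover counting error only, and with 1 group no test between groups was possible.

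Later introns held fewer peaks for their length than first introns or nearby intergenic sequence. The sequence that could hold a member came to 29.5 Mb, 22.1% of the chromosome arms, and carried 58.1 members per Mb (55.4 to 60.9). First introns under the same rule carried 142 per Mb (137 to 147), and intergenic sequence 0.5 to 10 kb from a TSS carried 88.0 per Mb. The density in later introns was 0.408 times that of first introns and 0.660 times that of the intergenic sequence, and the intervals do not overlap. The median distance to the nearest TSS was 5370 bp for members and 2480 bp for first-intron peaks.

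The gap to first introns was present at every distance from a TSS that was measured. At 0.5 to 1 kb from a TSS later introns carried 89.0 peaks per Mb (73.8 to 106) and first introns 206 (190 to 223). At 5 to 10 kb the values were 64.8 (58.6 to 71.4) in later introns and 120 (110 to 131) in first introns. Beyond 20 kb they were 21.8 (18.5 to 25.5) in later introns, 56.5 (43.8 to 71.6) in first introns and 9.20 (7.21 to 11.6) in intergenic sequence. Against intergenic sequence the order turned with distance: later introns were the sparser of the pair at 0.5 to 1 kb, where intergenic sequence carried 129 per Mb (116 to 143), and the denser beyond 20 kb. The 31 members within 100 bp of the distance limit had a median signal of 555, and the 42 peaks of the same introns up to 100 bp on the other side of it had 434.

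**Figure D1:**
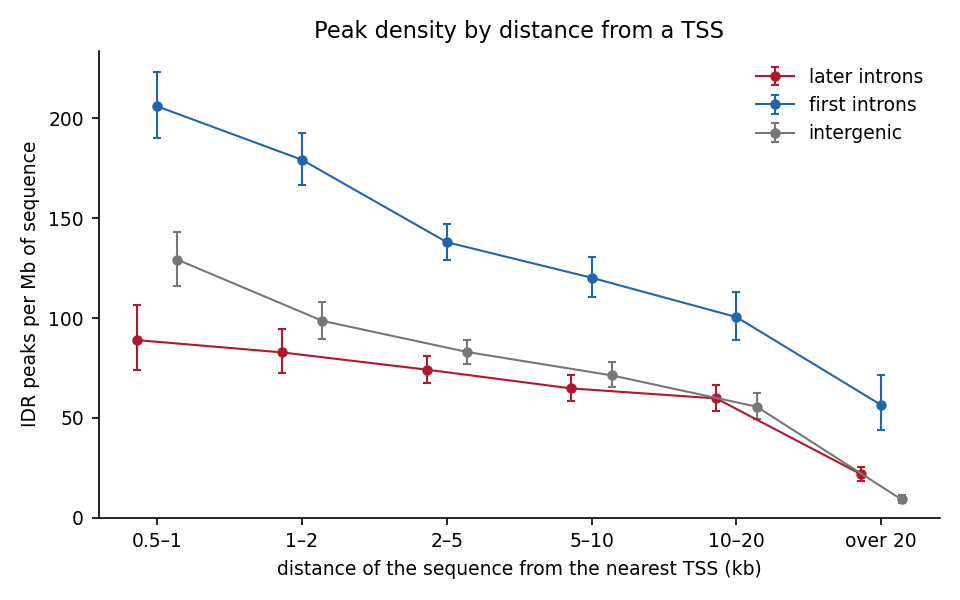
IDR peaks per Mb of sequence (vertical axis) against the distance of that sequence from the nearest TSS in kb (horizontal axis) for later introns, first introns and intergenic sequence. Points are counts divided by the length of sequence in the bin and bars are exact Poisson 95% intervals. Later introns, at 89.0 per Mb nearest to a TSS and 21.8 beyond 20 kb, lie below first introns in all 6 bins.

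The same order was seen within genes that have both kinds of intron. In 528 genes with at least 5 kb of each, later introns carried 994 members at 61.4 per Mb and first introns 1202 peaks at 111 per Mb. Later introns were the denser in 148 of these genes, first introns were the denser in 269, and 111 had a peak in neither.

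Within later introns the density varied with place. It was 84.1 per Mb (79.0 to 89.6) in introns of number 2, 63.5 in number 3, 61.6 in number 4, 43.4 in number 5 and 17.5 (14.7 to 20.7) in introns from number 6 on, counting each intron by its earliest place in any transcript. Long introns were denser than short ones up to a point, with 14.7 per Mb in introns under 1 kb, 86.7 in those of 10 to 20 kb and 40.1 in those over 50 kb. In introns of at least 2 kb, cut into 10 equal parts, the part nearest the 5′ end of the gene had 83.1 per Mb (72.7 to 94.5) and the part nearest its 3′ end 44.2 (35.9 to 53.8). Intron number, length and distance from a TSS move together, and their separate parts were not tested.

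Chromosome X carried the most members for its length. The density was 90.1 per Mb on X (82.0 to 98.8), 67.3 on 2L, 59.4 on 3L, 45.0 on 2R and 44.3 on 3R (39.9 to 49.0), and chromosome 4 held 2 members. First introns varied less, between 131 per Mb on 2R and 157 on 3L, with 152 on X, leaving aside the 5 peaks of chromosome 4. In all, 10 members (0.583%, 0.280 to 1.07) lay in annotated transposable elements, which made up 7.84% of the sequence, and how much of that sequence can take a uniquely placed read was not tested.

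Members were somewhat weaker than first-intron peaks and were found again in the replicates about as often. Their signal ran from 187 to 13756 with a median of 380 (quartiles 257 and 644), against medians of 428 in first introns, 368 in the intergenic peaks 0.5 to 10 kb from a TSS and 432 in the whole list. Of the 500 strongest IDR peaks 28 were members and 101 lay in first introns. A summit within 100 bp was present among the 11045 strongest peaks of both replicates for 1339 members (78.0%, 76.0 to 80.0). Over the whole list 79.6% of peaks met this condition, so the share of members was near the background. Another 293 members were matched in replicate 1 alone, 66 in replicate 4 alone and 18 in neither. Of the 429 weakest members, up to a signal of 257, 33.3% were matched in both, and of the 429 strongest, from 645 on, 98.1%. Over the 1634 members matched in the full lists of both replicates, the Spearman rank correlation of signal between replicates was 0.846, a description across sites and not across samples.

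The 20 strongest members are given by host. CG11050 had a signal of 13756 in the IDR list, 9678 in replicate 1 and 4110 in replicate 4, at chr2L:6612449-6612936. Its summit lay in intron 2, 140 bp long, 1021 bp from a TSS, and it ranked 4 of all 11045 peaks. Trl, which encodes the GAGA factor, had 11048 in the IDR list, 7861 in replicate 1 and 3212 in replicate 4, at chr3L:14759279-14759863 in its intron 2. These 2 members stood above all other members.

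Kdm2, a histone demethylase gene, held 2 of the 20 strongest, both in its intron 2 of 4170 bp. The stronger had 6908 in the IDR list, 4952 in replicate 1 and 1977 in replicate 4, and the weaker 3390 in the IDR list. In all, 6 members shared this intron, which came to 144 per 100 kb. Also among the 20 were JIL-1, a histone H3 kinase (3802 in the IDR list), Alh, a PHD finger protein gene (3494), and upSET, a SET domain protein gene (3158).

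Raf, the kinase between Ras and the MAP kinase cascade, held 2, at 4582 and 3102, in an intron 2 of 43637 bp. In mam, the coactivator of Notch, the strongest member had 3925, and in Dad, the inhibitory Smad of BMP signalling, 3675. Pli (Pellino), a ubiquitin ligase gene of innate immune signalling, had 3662. The other hosts among the 20 were CG14434 (4154 and 3314), Msp300, the nesprin that anchors muscle nuclei (4057), sick (3837), CG1677 with 3 members and atos.

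One of these 20 differed in its replicates. The member of atos on 2R had 2429 in replicate 1 and 2397 in replicate 4, nearly equal, while the other 19 had a replicate 1 signal more than 2 times that of replicate 4. The sequence within 50 bp of its summit was 51.5% G and C, the highest of the 20, in which the others ran from 16.8% to 42.6%.

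Members were unevenly shared among genes. The 1716 lay in 645 host genes, and 7595 protein-coding genes had sequence of this kind, so 8.49% of them were hosts, a background that changed with length. A single member was found in 304 hosts, 2 in 131, 3 or 4 in 108 and at least 5 in 102, and the 20 hosts with at least 10 held 316. Hosts had a median of 14036 bp of such sequence and other genes 258 bp, and the share of hosts was 0.419% among genes with up to 1 kb of it and 72.4% among genes with more than 50 kb. The nearest TSS belonged to the host in 879 members (51.2%, 48.8 to 53.6) and to a different gene in the rest. The same share over all later-intron sequence was not computed, so the part of gene layout in this value was not tested.

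The gene with the most members, though not the densest, was kirre, which encodes an immunoglobulin-domain adhesion protein of muscle founder cells and neurons. It lies on the plus strand at chrX:2740384-3134532 and held 51 members in 293 kb of later-intron sequence, 17.4 per 100 kb, with signals from 197 to 2797 and a median of 362. Its first-intron sequence of 40.1 kb held 4 peaks, and no TSS of kirre itself had a peak within 500 bp. Counting each member in its shortest intron, intron 4 held 21 members, the most of any intron. Intron 5 and an intron 2 of 121519 bp held 9 each. The strongest, at chrX:3097013-3097397 in intron 5, had 2144 in replicate 1 and 654 in replicate 4. A pair next to it in rank, with 1471 and 1298 in replicate 1 and 599 and 617 in replicate 4, lay 47.1 and 46.4 kb from the 5′ end of the gene. This pair also lay inside CG32795, a gene nested in the 121519 bp intron, whose TSS was the nearest. It was therefore not counted among the 9 members of that intron.

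**Figure D2:**
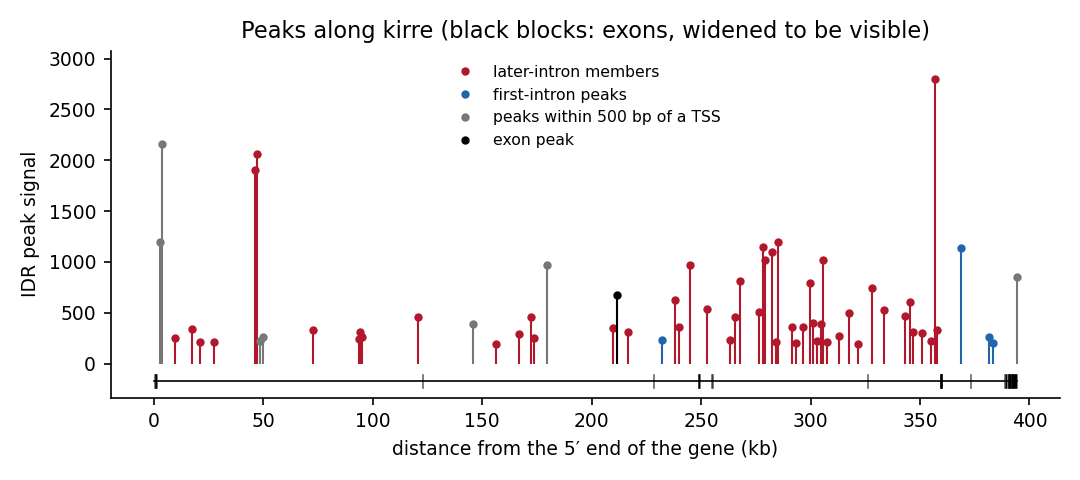
IDR peak signal (vertical axis) of every IDR peak inside kirre against distance from the 5′ end of the gene in kb (horizontal axis), coloured by position class, with exons as black blocks widened to be visible. The 51 later-intron members run through most of the gene and are densest in its 3′ part, where intron 4 holds 21. The 7 peaks within 500 bp of a TSS are at TSSs of other genes in the same interval.

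Next in number came CG1677 with 20 members, fz2 with 18, fz with 17, and rdx, hth, px and SKIP with 16. Ten-a and mtgo had 15 each. The products of fz and fz2 are Frizzled receptors of Wnt and planar polarity signalling, rdx (roadkill) encodes a Cullin adaptor that lowers the Hedgehog effector Ci, and hth encodes the homeodomain partner of Hox proteins. The strongest member of rdx had 1920 in replicate 1 and 720 in replicate 4. In hth the strongest had 1642 in replicate 1 and 513 in replicate 4, and in fz 806 in replicate 1 and 305 in replicate 4. The teneurin gene Ten-a, whose product matches synaptic partners, reached 1612 in the IDR list. In SKIP, a potassium channel interactor gene, the strongest had 1321 in the IDR list. Its matched replicate peaks, with 256 in replicate 1 and 338 in replicate 4, sum to 0.450 of that, whereas over all matched members the sum had a median of 1.00 of the IDR signal, so the order of its replicates is uncertain.

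The introns with the most members differed in which promoters they surround. Intron 2 of CG1677, 73902 bp long on X, held 19 members with signals from 243 to 3540, counting each member in its shortest intron. A further member inside it, with 2051 in the IDR list and nearest to Atg5, was counted in a shorter intron. None of the 19 was nearest to a TSS of CG1677. The nearest TSS was that of brk, the brinker repressor of BMP targets, in 6 members, of unc-119 in 5, of CG42780 in 4, of CBP in 3 and of CG15034 in 1. The strongest, chrX:7306923-7307506, lay 747 bp from brk, with 2542 in replicate 1 and 1004 in replicate 4. In the same way the 16 members of intron 4 of fz were nearest to CG13481 (7), CG13482 (5) and lncRNA:CR45025 (4). By contrast all 16 members of intron 2 of rdx and all 12 of that of ftz-f1, a nuclear receptor gene, were nearest to their own gene. The genes nearest to these members were named after the values were seen.

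Hosts more often had a promoter peak as well. A peak within 500 bp of a TSS of the gene was present in 294 of 645 hosts (45.6%, 41.7 to 49.5) and in 1985 of 6950 other genes (28.6%, 27.5 to 29.6), with 30.0% over both. The order was the same in each of 7 classes of later-intron length, for example 54.7% of 117 hosts and 34.7% of 242 other genes with 5 to 10 kb, and 33.8% of 71 hosts and 14.8% of 27 other genes with more than 50 kb. The number of TSSs per gene was not held equal.

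The gene gem itself held no member. Its paralogue grh, on 2R, held 2. The stronger, in intron 2 at chr2R:17813561-17813951, had 935 in the IDR list, 690 in replicate 1 and 245 in replicate 4, and the weaker, in intron 7, had 424 in the IDR list, 309 in replicate 1 and 119 in replicate 4. Neither held AACCGGTT.

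Gene lists, chosen with earlier results of these data known, were mostly denser in members than later introns at large. They cover embryonic development and other functions, such as ion channels, ribosomal proteins and the clock. Of 24 lists, 20 had more than 58.1 members per Mb of their later-intron sequence. Some of the 20 rest on few members, such as the CP2 and Grainyhead list with 2 (9.39 to 280 per Mb). In 12 the whole interval lay above that value and in 1 below it. The lists share genes, and long introns weigh most in them. Because of how the lists were chosen, these counts carry no test.

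Among signalling lists, BMP and activin genes had the highest density of the 24, with 9 members at 227 per Mb (104 to 431), in Dad (3 members, up to 3675), shn, a zinc finger cofactor of Mad (5, up to 2543), and the receptor gene tkv (1, at 1907). Wnt and Hedgehog genes had 49 members at 193 per Mb (143 to 256), among them dlp, a glypican gene (1, at 1887), arr, the Wnt coreceptor gene (7, up to 1688), fz and boi, a Hedgehog coreceptor gene (4, up to 961). EGFR, FGF and Ras genes had 35 members at 152 per Mb (106 to 211), of which pnt, the ETS effector of the pathway, held 13, up to 1994. Raf, with 9 members, was not among the genes counted in this list. Notch genes had 24 members at 134 per Mb (85.8 to 199), in 6 hosts that include mam (11), N (2, up to 2873), fng (2) and kuz (6). Hippo, insulin and growth genes had 17 at 132 per Mb (76.9 to 211), of which wts, the Hippo pathway kinase gene, held 4.

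Among epithelial lists, genes of wound response, chitin and cuticle had 17 members at 190 per Mb (111 to 304), of which msn, a kinase upstream of JNK, held 8 and puc, the phosphatase that JNK induces, held 4. Septate junction genes had 17 at 150 per Mb (87.5 to 240), in Nrg (8), scrib (6) and dlg1 (3). Adherens junction, polarity and actomyosin genes had 29 at 100 per Mb (67.1 to 144), 13 of them in ed (echinoid). Transcription factor lists stood at 131 per Mb for zinc finger, nuclear receptor and other factors and at 92.9 (64.0 to 131) for homeobox genes, where hth held 16 of 33 members and Antp reached 2028. Proneural, neuroblast and glial genes had 17 members at 126 per Mb (73.5 to 202), in 3 hosts. Of these 17, 13 were in pnt, and they are also counted in the EGFR list and in that of zinc finger and other factors. Polycomb and Trithorax genes had 9 members at 111 per Mb (50.8 to 211).

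At the low end, ion channel and synapse genes had 25 members at 24.3 per Mb (15.7 to 35.8) in 1.03 Mb of sequence, led by dlg1 at 837 and Shab, a potassium channel gene, at 629. Axon guidance and adhesion genes, also with long introns, had 140 at 88.5 per Mb (74.4 to 104), 51 of them in kirre. Neural RNA-binding genes were at 58.3 per Mb (43.0 to 77.2), the value of all later introns. No host was found among 8 ribosomal protein genes and 10 clock genes with such sequence, which was short in both lists.

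**Figure D3:**
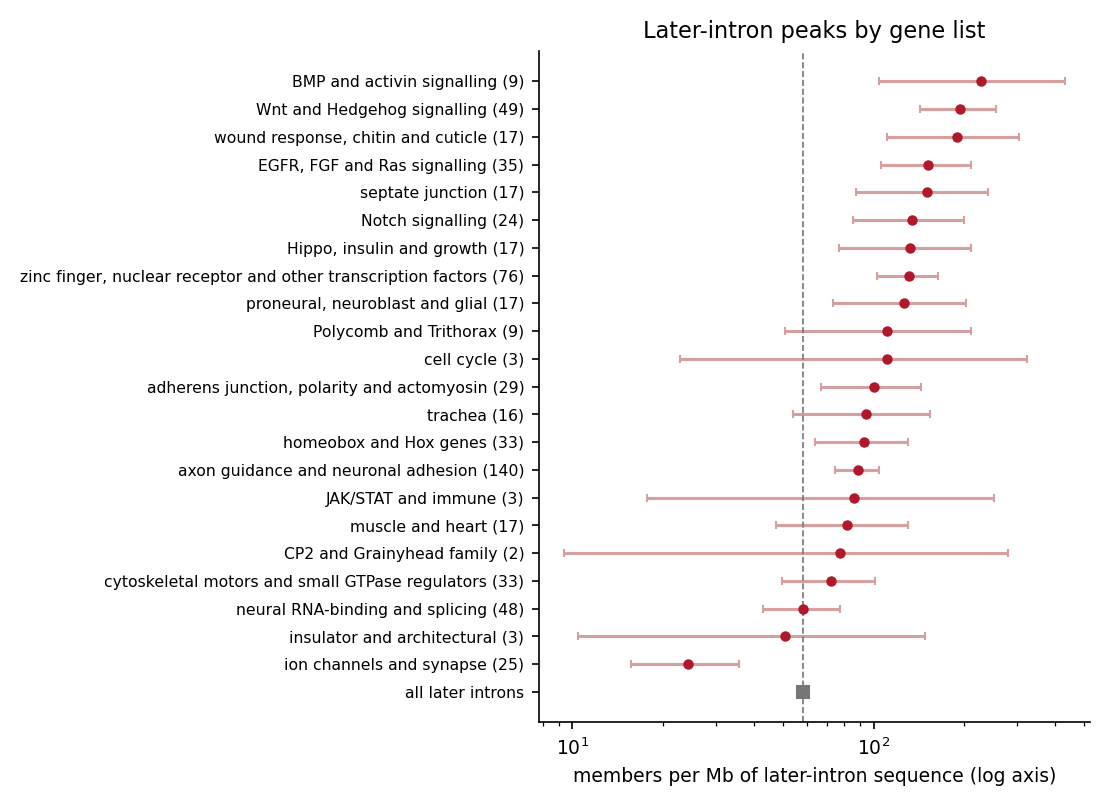
Members per Mb of later-intron sequence (horizontal log axis) for each gene list with a member, number of members in brackets, with exact Poisson 95% intervals. The dashed line and grey square mark all later introns, at 58.1 per Mb. BMP and activin genes are highest at 227, and the ion channel and synapse list, at 24.3, is the one whose interval lies wholly below the line.

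Summits sat in narrow A- and T-rich dips. Within 50 bp of member summits G and C made up 29.8% ± 7.45 (SD over 1716 members), against 42.7% in windows of the same width 500 bp to either side and 39.8% over 274948 windows that tile all later-intron sequence. Member by member, 1552 (90.4%, 89.0 to 91.8) were lower in G and C than their own flanks 250 bp away. Among the 1368 members with no exon within 600 bp, a set added after the data were seen, 91.6% (90.0 to 93.0) were lower, with means of 29.5% at the summit and 45.1% in those flanks. The value was 30.1% ± 7.66 at first-intron peaks and 28.7% ± 7.61 at the intergenic peaks 0.5 to 10 kb from a TSS (SD over peaks), so the dip was not particular to later introns. In 50 bp bins the mean was 29.2% at the summit, and 32.9% at the summits of 3753 weaker pooled peaks of later introns that were left out of the IDR list. Within 50 bp it was 28.8% ± 7.27 in the 429 strongest members and 30.5% ± 7.74 in the 429 weakest (SD).

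Short words at the summits followed this composition. All of the 20 hexamers that were most raised over the flanks, among 523 present in at least 5% of members, had no G or C (10 of them) or 1 (the other 10). TATAAA was present in 27.7% of members (25.6 to 29.9) and 10.02% of flanking windows, and TAATTA, the core of homeodomain sites, in 11.9% (10.4 to 13.5) and 6.79%. Words rich in G and C ran the other way: GAGAG, the GAGA factor site, was found in 7.52% of members and 13.9% of flanks, and GCCGNCG, a core of Mad sites, in 0.408% and 4.17%. A single CNNG, 1 site of the pair that CP2 proteins bind, was in 82.9% of members, 96.7% of flanks and 94.6% of all later-intron windows. A word this common says little about paired sites. Over 25 searched motifs, 9 were more frequent at members than in flanks and 15 less frequent, on both strands, with overlaps between motifs counted for each.

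The Grainyhead palindrome was rare. AACCGGTT was found within 50 bp of 4 member summits (0.233%, 0.0635 to 0.596), in 0.0874% of flanking windows and in 0.0771% of all later-intron windows. AACCGG, the first 6 of these bases, was found at 18 members (1.05%, 0.623 to 1.65), in 2.13% of flanking windows and in 1.77% of all later-intron windows. Over all IDR peaks the shares were 0.244% for AACCGGTT and 1.35% for AACCGG. A missing match says only that these letters are not in the window.

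The 4 members that held AACCGGTT shared a feature that the motif search had not used: their signal was higher in replicate 4. The scale of the signal is not stated for either list, so the ratio of replicate 1 to replicate 4 was used to order peaks and not as a change in level. Over 1634 members matched in both full lists this ratio had a median of 2.49, and 90% of members lay between 1.44 and 4.04. All 4 members with AACCGGTT were below 1. That of CG14073 had 608 in replicate 1 and 1019 in replicate 4, that of px 429 and 647, that of cact, the inhibitor of Dorsal, 163 and 259, and that of CG32264 177 and 221.

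In all, 27 members (1.65% of those matched) had a higher signal in replicate 4 than in replicate 1. Of these 27, 7 held AACCGG (25.9%, 11.1 to 46.3), against 11 of the other 1607 (0.685%, 0.342 to 1.22). AACCGGTT was held by 4 of the 27 (14.8%, 4.19 to 33.7) and by 0 of the 1607, which allows a share of up to 0.229% by the exact interval. Ordered by the ratio, the share with AACCGG was 27.3% below 0.8, 5.56% from 0.8 to 1.2, 1.05% from 1.2 to 1.8, 0.843% from 1.8 to 2.5, 0.471% from 2.5 to 3.5 and 0.578% above that. The split was chosen after the values were seen, and it carries no test.

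**Figure D4:**
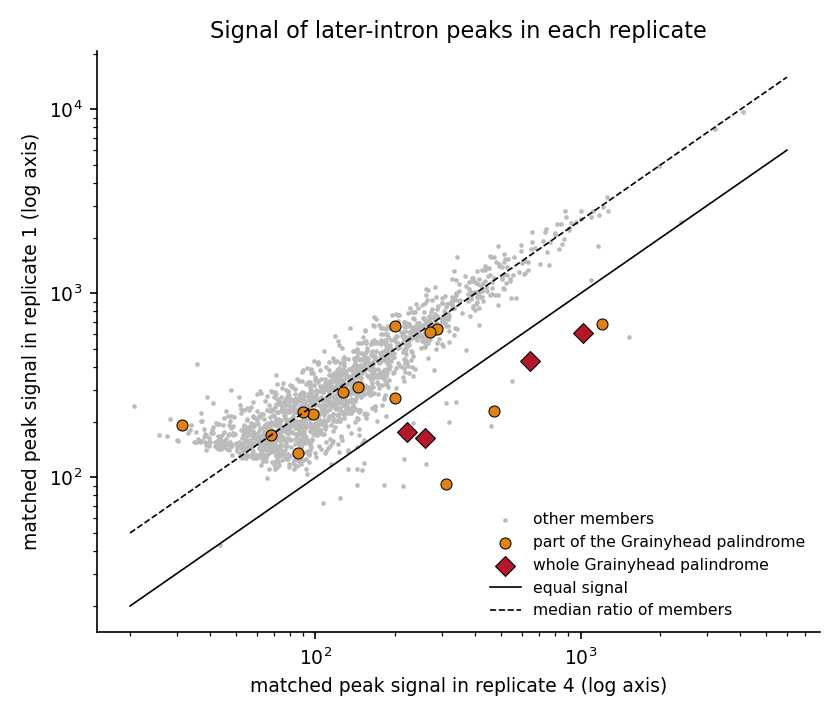
Signal of each later-intron member in its matched peak of replicate 1 (vertical log axis) and replicate 4 (horizontal log axis), for 1634 members. The dashed line is the median ratio of 2.49, along which nearly all members lie, and the full line is equal signal. Of the 18 members with a part or the whole of the Grainyhead palindrome, 7 lie below the line of equal signal. These 7 include all 4 with the whole palindrome.

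Their base composition differed too. The 27 members had 38.1% ± 7.68 G and C within 50 bp of the summit (SD, n = 27 regions), and the other 1607 had 29.5% ± 7.26 (SD). In 50 bp bins the 27 had 38.9% at the summit, 35.4% at 50 bp before it and 39.6% at 250 bp before it. The 1607 had 29.0%, 31.1% and 45.4% in these bins, so the 27 lacked a dip of that depth. With few regions the bins of the 27 were uneven, between 35.4% and the 46.7% at 650 bp after the summit. AACCGG is itself richer in G and C than the average window, and all later-intron windows, which average 39.8% G and C, held it in 1.77%.

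**Figure D5:**
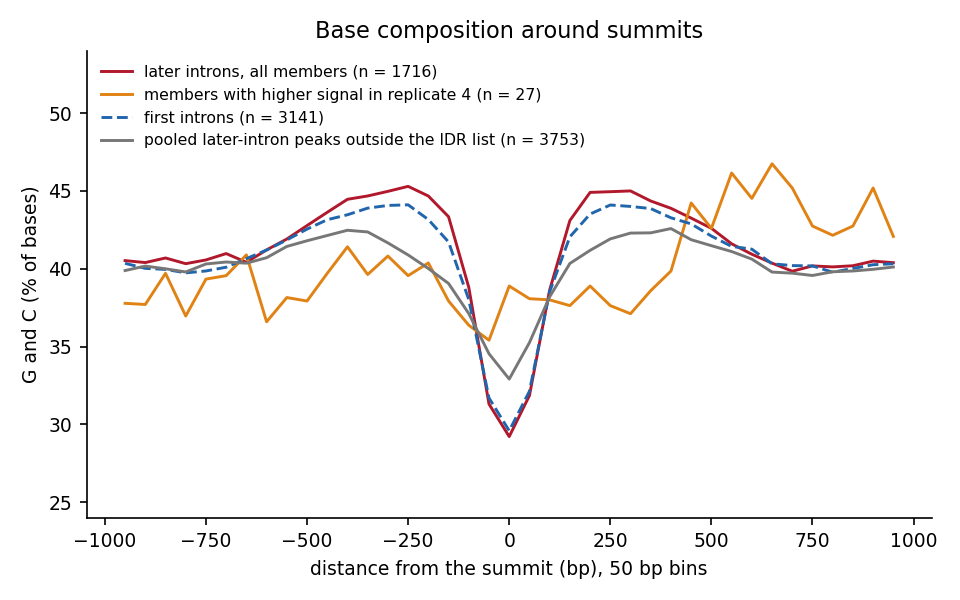
Mean share of G and C (vertical axis, %) in 50 bp bins around the summit (horizontal axis, bp) for all members, the 27 members with higher signal in replicate 4, first-intron peaks, and pooled later-intron peaks outside the IDR list. All members fall to 29.2% at the summit between shoulders near 45%, first introns overlie them, and the 27 stay at 38.9% at the summit.

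The strongest of the 27 were at known and unnamed genes alike. In px, which restrains wing vein formation, a member at chr2R:22537341-22538524 had 580 in replicate 1 and 1529 in replicate 4. In Pino a member at chr2L:1125415-1125846, whose sequence is printed above with AACCGG on both strands, had 681 in replicate 1 and 1200 in replicate 4. A second member of Pino, with 92.1 in replicate 1 and 311 in replicate 4, also held AACCGG, as did that of CG32647, with 231 and 470. The 27 lay in 23 hosts, px with 3 and Pino and uex with 2 each, with a median signal of 404 and a range from 191 to 2107. Of them, 14 were among the strongest peaks of both replicates (51.9%, 31.9 to 71.3), against 78.0% of all members. The split itself favours a low replicate 1 signal, so these shares are not like for like. In 24 of the 27 the replicate signals summed to within 20% of the IDR signal, and of these 7 (29.2%) held AACCGG.

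The same order held outside later introns for AACCGG. Among first-intron peaks 76 of 2987 matched ones had the higher signal in replicate 4, of which 22.4% held AACCGG, against 0.618% of the others. Among the intergenic peaks 0.5 to 10 kb from a TSS the values were 14.3% of 21 peaks and 0.627% of 1915, and over the whole list 16.9% of 248 and 0.944% of 10168. The pattern is therefore not particular to later introns. The whole palindrome was split less cleanly there: of 22 matched peaks outside later introns with AACCGGTT, 12 had the higher signal in replicate 4, among them 7 of 10 in first introns. Read depth and embryo collection of each replicate are not given in the sources used here, and their part in this order was not tested.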

How the data were processed

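ChIP-seq peak lists on dm6 were used as deposited, from 2 samples of 1 group. Per the listings deposited with the samples, peaks were called per replicate and on the pooled replicates with a further alignment as input, and the IDR list was made from these lists. Which aligner and caller were run, and where the IDR limit was set, is not given in the sources used here. The authors' deposited lists give each peak a signal, of unstated scale, and a −log10 q-value that is capped. Signal was used to rank and describe peaks within a list. Read depth is unknown, and control reads were not used here.

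Summits were placed on gene models of Ensembl release 115 (BDGP 6.54), without transposable elements, which left 18164 genes and 23581 distinct TSSs. A member in several introns was given to the shortest. Summits within 100 bp matched. Replicate overlap used the 11045 strongest peaks of each replicate, and signal ratios used the full lists. Motifs were searched within 50 bp of summits on both strands, and flanking windows were centred 500 bp to either side. Shares carry exact Clopper-Pearson 95% intervals and densities exact Poisson ones. Both cover counting error only. Python 3.11.15, pandas 2.3.3 and scipy 1.17.1 were used, and the functions were checked on simulated data. Numbered replicates are labelled as biological, and peaks that share a host are not independent.

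The members, gene lists, motifs and rules were chosen with earlier results of these data known. Of 673 list entries, 30 matched no single gene and were left out. Genes were named as hosts of the 20 strongest members matched in both replicates, the 10 hosts and 5 introns with the most members, up to 4 hosts per list by signal, and gem and grh. The split by replicate ratio and the genes named in it were chosen after the values were seen. Alternatives changed the TSS distance and set, the position used, the exons left out, the matching distance, the motif window, the strength of the list and the replicate.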

Additional observations from a re-analysis of the deposited data

How the results depend on the processing

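The share of IDR peaks that are members was 16.6% with a TSS distance of 250 bp, 14.4% with 1000 bp and 13.3% in the 5522 strongest peaks, and 14.6% to 15.8% with either replicate left out. Density was 61.1 per Mb with 250 bp, 24.96 in the 5522 strongest, since the other peaks are left out, and 54.6 to 59.1 with a replicate left out. The share of members in both replicates was 70.5% with summits within 50 bp, 95.2% over all peaks of each replicate and 96.7% in the 5522 strongest. Median signal was 117 to 269 in single replicates, whose scales differ. AACCGGTT was found in 0.0583% of members within 25 bp of the summit and 0.408% within 100 bp, windows of other lengths, in 0.407% of the 5522 strongest and in 0.172% to 0.372% with a replicate left out, all on few members (0.372% without replicate 1). Hosts with a promoter peak made up 27.3% within 250 bp, 58.0% within 1000 bp, 35.6% in the 5522 strongest and 44.0% to 53.4% with a replicate left out. The share in other genes was not recomputed in these settings, so the contrast between hosts and other genes was not checked by them. Relative to all later introns, 19 of 24 gene lists were denser and 3 sparser under each list of peaks tried, and 2 changed side. Among the 3 were the ribosomal protein and clock lists, whose 0.00161 and 0.0153 Mb left little room for a member. Some of the 19 rest on few members, such as the CP2 and Grainyhead list with 1 to 3. The share of replicate-4-high members with AACCGG ran from 14.8% to 29.6% over 7 added settings, chosen after the data were seen. No paired analysis was possible because the series has 1 group. Depth is not given, so weak peaks, of which 33.3% in the weakest 429 were matched in both replicates, limit the counts.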
